A study of Mus musculus with 10 samples.

Results

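Heat shock proteins and chaperonins were followed in single Bergmann glia at 2 ages. The set held every gene with a usable value whose symbol names a member of the Hsp70 (Hspa, with Hsph1), Hsp90, small heat shock protein (Hspb), Hspd1 and Hspe1, J-domain protein (Dnaja, Dnajb, Dnajc) or CCT chaperonin (Cct, Tcp1) families. This gave 78 of 17919 genes, in 8 families. Amplified cDNA of 10 cells was hybridized to Affymetrix whole-genome mouse expression arrays, with 1 cell on each array. The P30 group was 5 cells from mice at postnatal day 30, and the P6 group was 5 cells from mice at postnatal day 6. Mice of both ages carried GFP under the Gfap promoter (GFAP-GFP line), and cells were taken from the mid-sagittal cerebellum after enzymatic dissociation and picked by GFP signal and shape. No source names the animal behind a cell, so each age counts as 1 sample. For this reason no p-value was computed, and SDs and ranges describe cells.

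Chaperones bind unfolded or partly folded proteins and help them to fold, to assemble or to be removed. Hsp70 proteins work in cycles of ATP hydrolysis that J-domain proteins start and nucleotide exchange factors end. Hsp90 acts later on selected clients, small heat shock proteins hold clients without ATP, and the ring-shaped chaperonins, Hspd1 with Hspe1 in mitochondria and CCT in the cytosol, enclose a client in a chamber. Bergmann glia are the radial astroglia of the cerebellum, whose fibers span the molecular layer and wrap Purkinje cell synapses.

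The classical response to heat and misfolded protein runs through heat shock elements, and the response to misfolded protein in the endoplasmic reticulum (ER) through ER stress elements. Promoters of the members are shown for these elements. The lists by known induction used below were set by gene symbol and not by element. The windows searched ran from 250 bases before to 50 bases after a RefSeq start (GRCm38.p6), on both strands, and were at hand for 65 of the 78 members. A heat shock element of 3 units, GAANNTTCNNGAA or TTCNNGAANNTTC, stood in 0.662% of 27025 genes and in 4 members. In the lines below the matched letters are in capitals, each sequence is read on the strand of its gene, and the 2 longest are 1 site between Hspe1 and Hspd1 read from either side, where overlapping matches were joined.
Hspd1 (chr1:55088054-55088081, minus strand): gggccTTCCGGAAGGTTCTAGAAcggac
Hspe1 (chr1:55088054-55088081, plus strand): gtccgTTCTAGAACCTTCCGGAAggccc
Dnajb6 (chr5:29735847-29735869, plus strand): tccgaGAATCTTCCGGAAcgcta
Hsph1 (chr5:149636287-149636305, minus strand): gcagaTTCTGGAAAGTTCt

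The Hsph1 match lay after the annotated start and the other 3 before it. Of these 4 genes, Hsph1 and Dnajb6 were higher at P30 in mean (differences 2.41 and 0.70). For Dnajb6 the cells of both ages overlapped, and its 4 probe sets differed in sign, from -0.65 to 2.19. Hspd1 and Hspe1, which share 1 site, were lower by small differences (-0.17 and -0.39). The part of the element in these values was not tested. The shorter element of 2 units, GAANNTTC or TTCNNGAA, is contained in the longer one. It stood in 17.0% of all genes and in 19 members, of which 7 were higher and 12 lower at P30. Among them were the paralogs Hspa1a and Hspa1b, which carried the same letters at the match, and Hspb6.
Hspa1a (chr17:34972248-34972265, minus strand): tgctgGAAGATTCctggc
Hspa1b (chr17:34959330-34959347, minus strand): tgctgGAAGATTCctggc
Hspb6 (chr7:30553176-30553193, plus strand): ttattGAAGTTTCtaaat
The ER stress element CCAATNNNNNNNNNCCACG stood in 0.137% of all genes and in 3 members, each of which encodes an ER protein.
Hspa5 (chr2:34772020-34772048, plus strand): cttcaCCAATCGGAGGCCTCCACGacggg
Hsp90b1 (chr10:86705633-86705661, minus strand): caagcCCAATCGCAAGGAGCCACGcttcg
Dnajc3 (chr14:118937822-118937850, plus strand): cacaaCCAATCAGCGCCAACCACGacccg
Hsp90b1 held a further match to this element in the other orientation, at chr10:86705528-86705556. A match is a run of letters and does not show that a factor binds.

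The deposited values are ratios, in which a value was divided by the median of its array and by a median for its probe set. The median of the P6 cells was at a ratio of 1 in 69.7% of complete probe sets (within 0.005 on the log2 scale), so a log2 ratio of 0 marks about the middle P6 cell. The ratios hold no expression level, and genes cannot be ranked by abundance. A gene was given the mean log2 ratio over its probe sets, and the ages were compared by the difference of the mean of P30 cells minus that of P6 cells. A gene was called when that difference was over 3-fold. Values of single cells are log2 ratios and are given for replicates 1 to 5 in order.

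The chaperone genes did not move as 1 group. The mean was higher at P30 in 31 members and lower in 47, and the median difference was -0.16, against -0.05 over all genes. More than 3-fold, 7 members were higher at P30 (9.0% of members, against 4.93% of all genes) and 5 were higher at P6 (6.4%, against 9.39%). This split changed with the scale, since 8 were higher at P30 and 4 at P6 with array medians set equal (6.12% and 8.03% of all genes). With arrays scaled to the hybridization spikes, 6 were higher at P30 and 10 at P6 (3.38% and 12.9% of all genes). These scalings shifted the median difference of all genes to 0.11 and -0.32. All P30 cells stood above all P6 cells in 1 member (1.41% of all genes) and below them in 1 member (2.13% of all genes).

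**Figure D1:**
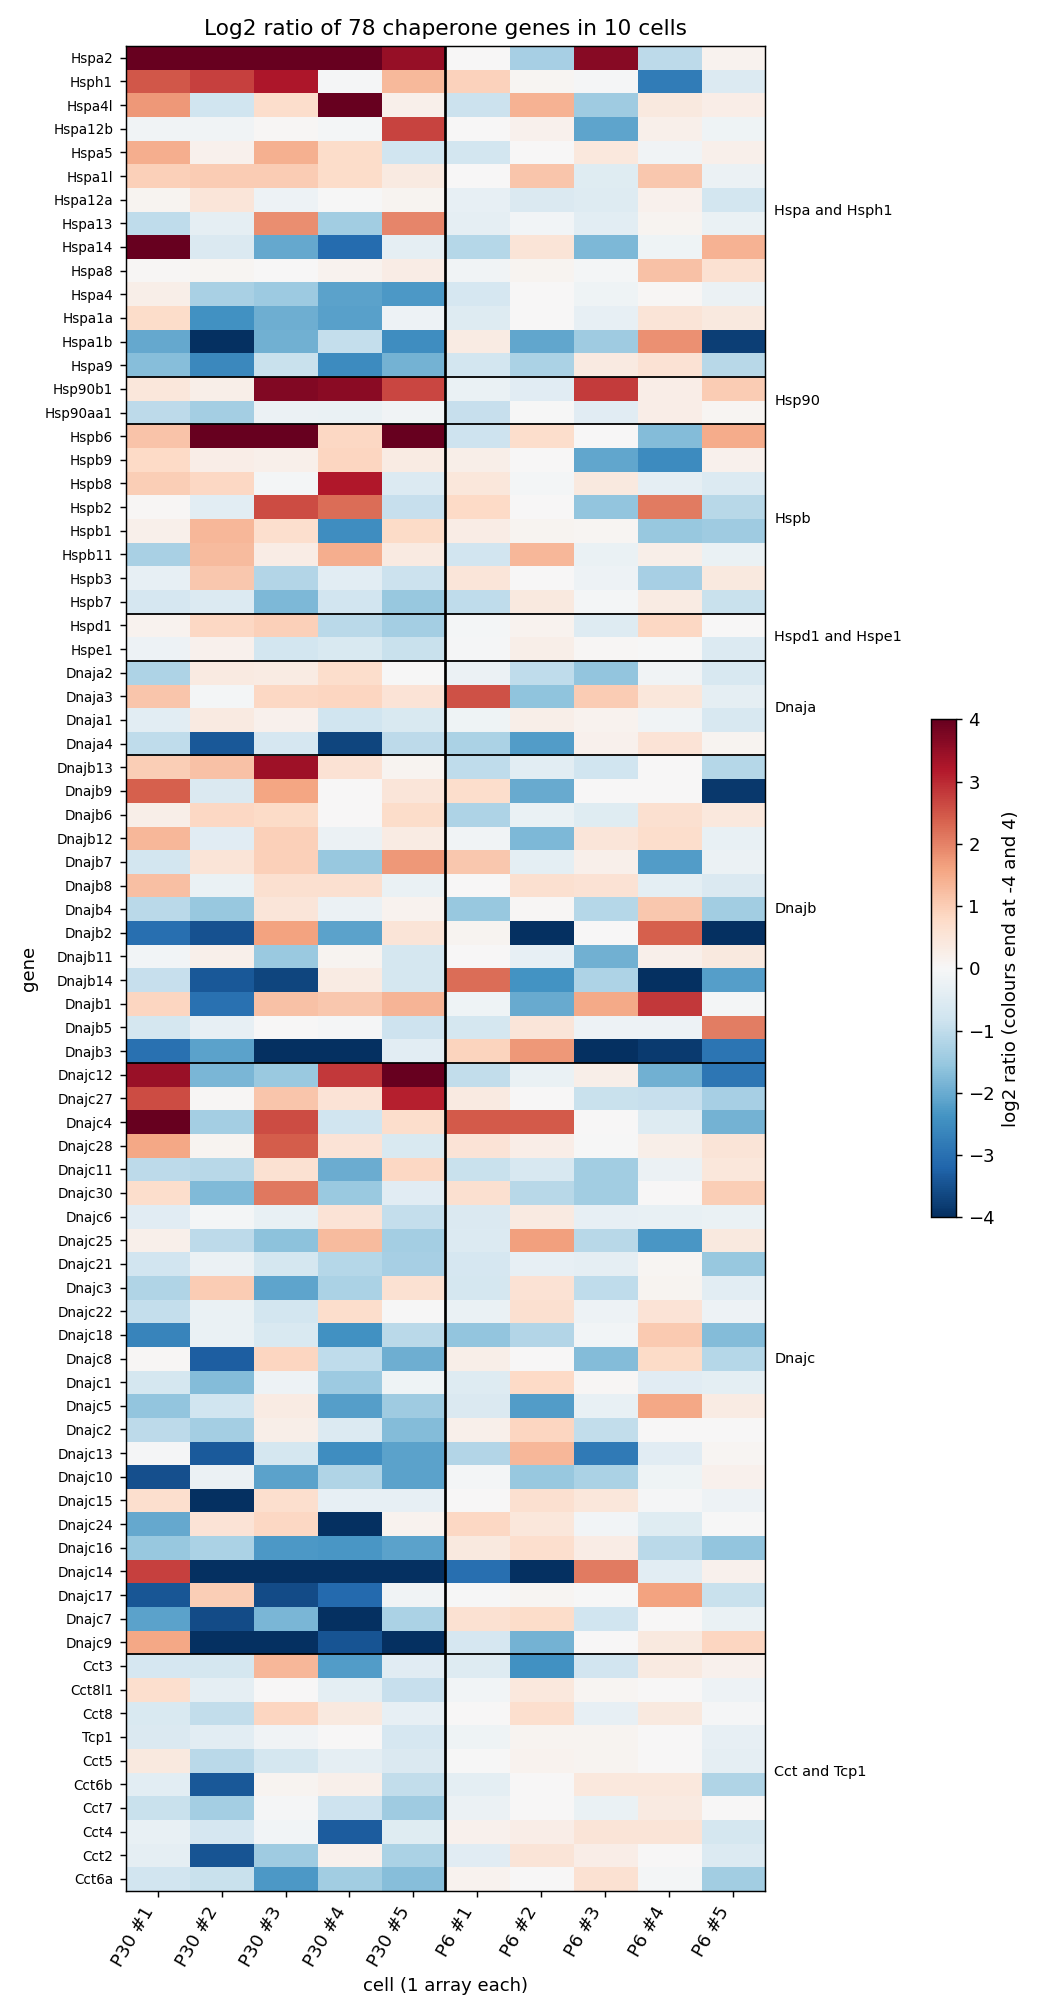
Log2 ratio of the 78 members (rows, ordered within each family by the difference between ages) in the 5 P30 cells (left) and the 5 P6 cells (right), with colors ending at -4 and 4. Most rows of the Dnajc and Cct blocks are bluer on the left, while single genes such as Hspa2 and Hspb6 are red on the left.

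By family, the medians ran from 0.63 in the genes with an Hspb symbol to -0.70 in the Dnajc genes. The median difference was 0.46 in the 14 Hspa and Hsph1 genes, 0.54 in the 2 Hsp90 genes, 0.15 in the 13 Dnajb genes and 0.05 in the 4 Dnaja genes. The Dnajb and Dnaja medians turned negative (-0.12 and -0.22) when arrays were scaled to the spikes. It was -0.28 in Hspd1 and Hspe1 and -0.59 in the 10 CCT genes. The last and the Dnajc family were the 2 large families with most genes lower at P30, 9 of 10 and 19 of 25, where 52.4% of all genes were lower.

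**Figure D2:**
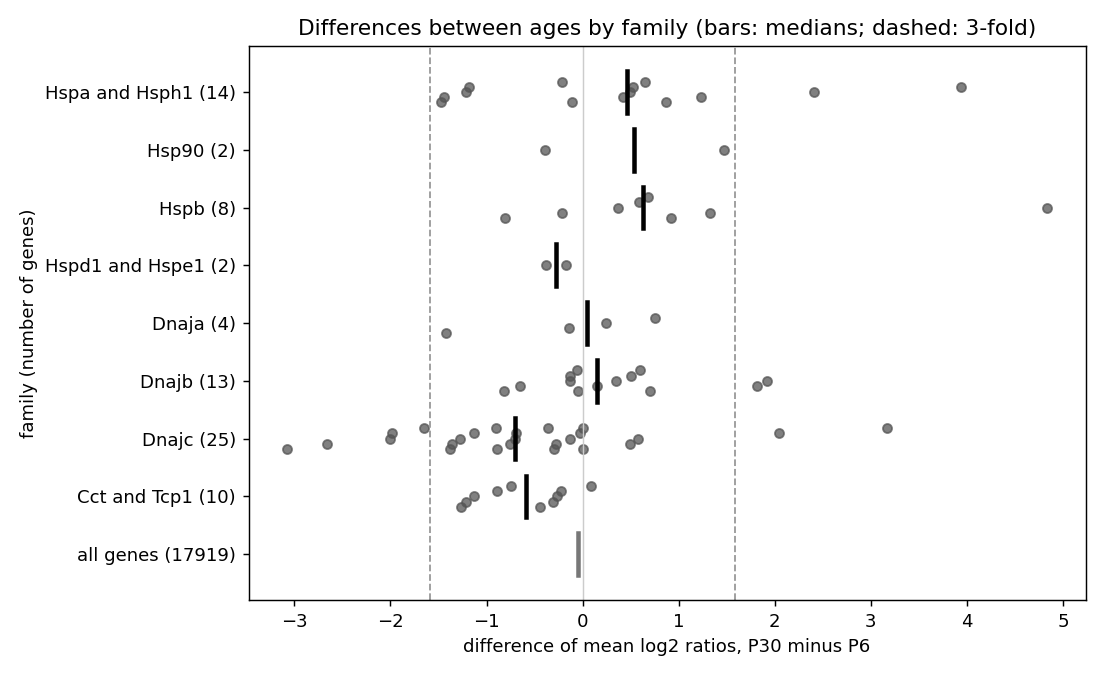
Difference of mean log2 ratios, P30 minus P6, for each member (points) by family, with family medians (bars), the median of all genes in the lowest row and dashed lines at 3-fold. The Dnajc and CCT medians lie at -0.70 and -0.59, and the members past the right line belong to Hspa and Hsph1, Hspb, Dnajb and Dnajc.

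Among the Hsp70 proteins, Hspa2, an Hsp70 best known for its role in male meiosis, had the largest difference. Its log2 ratio was 4.27, 4.59, 4.55, 4.21 and 3.48 in the P30 cells, against 0, -1.32, 3.63, -1.03 and 0.13 in the P6 cells. The P30 cells lay within a narrow band, and replicate 3 of the P6 cells reached into it. The mean was 4.22 ± 0.45 at P30 and 0.28 ± 1.97 at P6 (SD, n = 5 cells each), a difference of 3.94 or 15.3-fold, measured by 1 probe set. Without replicate 3 of the P6 cells it was 4.78 (27.4-fold). Hspa2 lies at chr12:76403812-76406938.

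Hsph1, an Hsp110 protein that exchanges the nucleotide of Hsp70, was also higher at P30. Its values were 2.49, 2.74, 3.22, -0.04 and 1.30 in the P30 cells, against 0.92, 0.09, -0.04, -2.79 and -0.54 in the P6 cells. In 4 of the 5 P30 cells it exceeded every P6 cell. The difference was 2.41 (5.32-fold), and its probe sets gave 3.14 and 1.68. Without replicate 4 of the P6 cells, the lowest, the difference was 1.83, still over 3-fold. Hsph1 holds a heat shock element of 3 units (above), and its direction was not shared by the heat-inducible Hsp70 genes described next.

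Hspa1a and Hspa1b, the stress-inducible Hsp70 genes, are near-identical copies whose signal the array can mix, so their values are uncertain. Hspa1a stood at 0.74, -2.42, -1.94, -2.18 and -0.21 in the P30 cells, against -0.53, 0, -0.31, 0.51 and 0.38 in the P6 cells (difference -1.21). Hspa1b stood at -2.06, -4.91, -1.92, -0.96 and -2.48 in the P30 cells, against 0.32, -2.09, -1.41, 1.83 and -3.78 in the P6 cells (difference -1.44). Cells of both ages overlapped in both genes, neither was over 3-fold lower over all cells, and 1 probe set of Hspa1b was 0.20 higher at P30. Single cells decided this, since Hspa1a passed 3-fold without replicate 1 of the P30 cells (-1.70). Hspa1b passed it without replicate 4 of the P30 cells or replicate 2 or 5 of the P6 cells (-2.13 without the last), and stood at -0.72 without replicate 4 of the P6 cells. The values for Hspa1b include floor values, the lowest ratio above 0 in the deposited values (0.01), in 1 cell of each age.

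Hspa8, the constitutive cytosolic Hsp70, was nearly level. It measured 0.06, 0.07, 0.02, 0.15 and 0.29 in the P30 cells, against -0.14, 0.10, -0.09, 1.17 and 0.62 in the P6 cells, with a difference of -0.22. Its sign depended on 1 probe set, since 3 of 4 differed by 0.26 to 0.30 and the other by -1.68. That probe set was high in 1 P30 cell and in 2 P6 cells (2.40 in replicate 5 of the P30 cells, and 4.68 and 3.76 in replicates 4 and 5 of the P6 cells).

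Hspa4 and Hspa4l are Hsp110-type relatives of Hsph1, and their probe sets did not move together. For Hspa4 the values were 0.24, -1.28, -1.46, -2.13 and -2.29 in the P30 cells, against -0.68, 0.01, -0.16, 0.06 and -0.24 in the P6 cells, a difference of -1.18. Without its probe set with floor values in 2 P30 cells the difference was -0.20. For Hspa4l the values were 1.73, -0.79, 0.71, 4.10 and 0.19 in the P30 cells, against -0.85, 1.38, -1.43, 0.39 and 0.27 in the P6 cells, a difference of 1.24. Within it, a single probe set read 4.91, 3.50, 5.94, 6.38 and 4.01 in the P30 cells, against -0.37, -1.99, 0, 1.37 and 0.09 in the P6 cells. All P30 cells stood above all P6 cells there, by 34.9-fold in mean, while the other 3 probe sets differed by -1.45 to 1.34. Among genes, 1.41% had all P30 cells above, and the share among probe sets was not counted. The mean over the probe sets of a gene hides such disagreement. Probe sets can read different transcript ends, and whether these did was not tested.

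**Figure D3:**
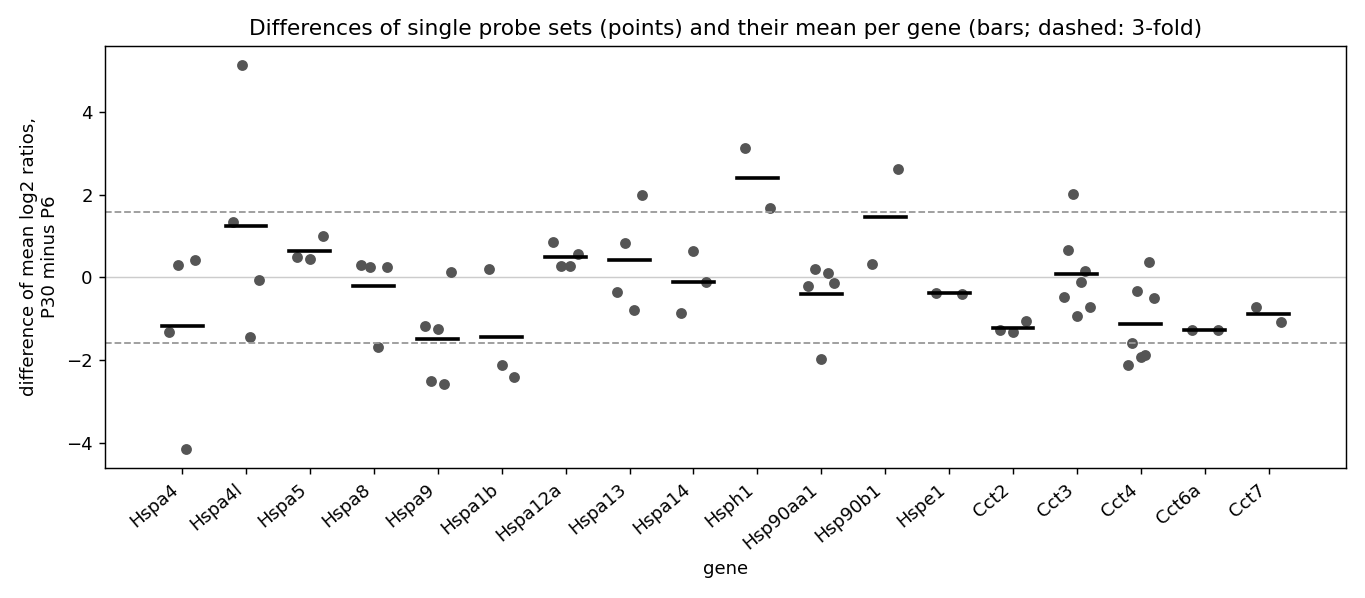
Difference of mean log2 ratios, P30 minus P6, of every complete probe set (points) and their mean (bars) for members of the Hspa, Hsp90, Hspe1 and Cct families with several probe sets. Hspa4l spreads from -1.45 to 5.13 and Hspa4 down to -4.13, while the points of Hspa5, Cct2, Cct6a and Hspe1 lie close together.

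The other Hsp70 genes were under the call. Hspa9, the mitochondrial Hsp70 that drives protein import, came nearest to it from below, with -1.71, -2.57, -0.90, -2.52 and -1.89 in the P30 cells, against -0.75, -1.27, 0.35, 0.57 and -1.12 in the P6 cells (difference -1.48). In it 4 of 5 P30 cells were lower than every P6 cell, and without replicate 3 of the P30 cells the difference passed 3-fold (-1.73). Hspa12a had 0.11, 0.49, -0.20, -0.02 and 0.12 in the P30 cells, against -0.31, -0.57, -0.51, 0.17 and -0.75 in the P6 cells. It was 0.49 higher in mean at P30, with one of the 3 smallest spreads among members (pooled SD 0.31). Hspa1l, another testis-rich Hsp70, had 0.95, 1.03, 1.01, 0.73 and 0.36 in the P30 cells, against 0, 1.10, -0.47, 1.08 and -0.24 in the P6 cells. Hspa13 (difference 0.42) and Hspa14 (difference -0.11) varied more within ages, with Hspa14 at 4.28 in replicate 1 of the P30 cells and -3.07 to -0.37 in the other 4, and at a difference of -1.27 without that cell.

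Hspa12b, known from endothelial cells, differed by 0.87 because of 1 cell at each age. It read -0.13, -0.14, 0.04, -0.06 and 2.71 in the P30 cells, against 0, 0.16, -2.11, 0.19 and -0.17 in the P6 cells. The P30 cell that stood out, replicate 5, also had the highest median over the 8 measured endothelial and pericyte markers, 2.94, against -0.88 to 0.10 in the other P30 cells and -0.36 to 0 in the P6 cells. The part of that signal in the Hspa12b value was not tested.

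The ER chaperones formed a mixed list. Hspa5 (BiP), the Hsp70 of the ER, was 1.46, 0.17, 1.44, 0.74 and -0.81 in the P30 cells, against -0.73, 0.01, 0.43, -0.15 and 0.22 in the P6 cells. The difference was 0.64, all 3 of its probe sets were higher at P30 (by 0.44 to 0.99), and the cells of both ages overlapped. Hsp90b1 (Grp94), the ER form of Hsp90, was 0.45, 0.24, 3.70, 3.62 and 2.67 in the P30 cells, against -0.27, -0.45, 2.79, 0.25 and 1.02 in the P6 cells, a difference of 1.47. Nearly all of it came from 1 of its 2 probe sets, at 5.92 to 6.68 in 3 P30 cells and at 5.44 in 1 P6 cell, while the other differed by 0.32. Without that P6 cell, replicate 3, the gene passed 3-fold (2.00).

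Dnajb9 (ERdj4), an ER J-domain protein and a target of the unfolded protein response, was the 1 gene over 3-fold among the 8 members of the fixed ER list (12.5%, against 4.93% of all genes). Its values were 2.38, -0.56, 1.58, 0.01 and 0.49 in the P30 cells, against 0.69, -2.01, 0, 0.02 and -3.86 in the P6 cells, a difference of 1.81 (3.51-fold). The call rested on single cells, since without replicate 5 of the P6 cells the difference was 1.11, and leaving out replicate 1 of the P30 cells or replicate 2 of the P6 cells ended it too. Against these genes, Dnajc10, an ER disulfide reductase, differed by -1.28 and Dnajc3, which carries an ER stress element, by -0.30. Over the list the median was 0.18, with 4 higher and 4 lower at P30.

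Hsp90aa1, the inducible cytosolic Hsp90, differed little as a gene. It read -1.03, -1.37, -0.23, -0.27 and -0.14 in the P30 cells, against -0.92, -0.01, -0.46, 0.26 and 0.07 in the P6 cells (difference -0.40). In 1 of its 5 probe sets all P30 cells lay below all P6 cells (difference -1.97), and the other 4 ran from -0.20 to 0.21. A probe set of Dnaja4 (difference -1.69) was separated in the same way. Among genes, 2.13% had all P30 cells below, and the share among probe sets was not counted. No value is given for Hsp90ab1, the constitutive form, because no probe set was assigned to it alone.

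The small heat shock protein family was set by Hspb symbol alone, and 6 of its 8 genes were higher at P30, among them Hspb11 (difference 0.37). Hspb6 (Hsp20) had the largest difference of all members, with 1.14, 7.69, 7.42, 0.82 and 6.73 in the P30 cells, against -0.82, 0.69, 0, -1.74 and 1.48 in the P6 cells. It was split among P30 cells, with 3 at 6.73 or more and 2 within the range of the P6 cells. The mean was 4.76 ± 3.47 at P30 and -0.08 ± 1.26 at P6 (SD, n = 5 cells each), a difference of 4.84 or 28.6-fold, read by 1 probe set. Hspb6 lies at chr7:30552535-30555443. Without any single cell the difference stayed between 4.11 and 5.82 (56.6-fold, without replicate 4 of the P30 cells).

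The other genes with an Hspb symbol differed by less. Hspb9 stood at 0.79, 0.28, 0.19, 0.87 and 0.32 in the P30 cells, against 0.25, 0, -2.08, -2.51 and 0.16 in the P6 cells, and its difference of 1.33 came from 2 low P6 cells (0.32 when medians of the cells were compared). The stress-inducible Hspb1 (Hsp25) differed by 0.58 and Hspb8, a partner of the co-chaperone Bag3, by 0.92, mostly through replicate 4 of the P30 cells at 3.21. Hspb7 (-0.81) and Hspb3 (-0.22) were the lower ones. Cryab, a small heat shock protein whose symbol lies outside the rule, had 2.43, 1.57, 1.81, 1.34 and 1.05 in the P30 cells, against -0.14, -3.05, 0.48, -2.79 and 0.90 in the P6 cells. All P30 cells were above, as in 1.41% of all genes, and the P6 values of Cryab include 1 floor value.

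The mitochondrial chaperonin Hspd1 (Hsp60) and its lid Hspe1 (Hsp10), which share the promoter site shown above, stayed close between ages. Hspd1 measured 0.15, 0.84, 0.96, -1.07 and -1.35 in the P30 cells, against -0.07, 0.14, -0.52, 0.84 and 0 in the P6 cells (difference -0.17). Hspe1 measured -0.20, 0.17, -0.75, -0.60 and -0.88 in the P30 cells, against -0.04, 0.23, 0.05, -0.03 and -0.54 in the P6 cells (difference -0.39), and its 2 probe sets differed by -0.41 and -0.36. Replicates 4 and 5 of the P30 cells were the lowest for Hspd1, and P30 replicates 3, 4 and 5 for Hspe1. The 8 measured genes of the mitochondrial list, which adds Hspa9 and 5 J-domain proteins, had a median of -0.09, and 0 of 8 were over 3-fold in either direction, against 14.3% of all genes. At this list size such a count is near the background.

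In the CCT chaperonin, an 8-subunit ring that folds actin and tubulin, 9 of 10 genes were lower at P30. By over 3-fold, 0 of 10 were higher at P6, against 9.39% of all genes, a count near the background for 10 genes. Tcp1, the first subunit, was the most even member, with -0.57, -0.42, -0.15, 0.01 and -0.67 in the P30 cells, against -0.17, 0.10, 0.11, 0 and -0.33 in the P6 cells. Its difference of -0.30 compared with a pooled SD of 0.24, the smallest of all members. Cct7 measured -0.89, -1.37, -0.06, -0.83 and -1.43 in the P30 cells, against -0.25, 0, -0.25, 0.36 and 0.02 in the P6 cells, with 4 of 5 P30 cells under every P6 cell and a difference of -0.89. Cct6a measured -0.76, -0.90, -2.31, -1.38 and -1.71 in the P30 cells, against 0.13, 0, 0.60, -0.08 and -1.40 in the P6 cells, and had the largest difference of the family at -1.26 (2.40-fold higher at P6).

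For Cct2, Cct4 and Cct6b a single P30 cell carried much of the difference. Cct2 read -0.36, -3.45, -1.42, 0.18 and -1.25 in the P30 cells, against -0.46, 0.51, 0.27, 0 and -0.55 in the P6 cells, and -1.22 in the mean became -0.67 without replicate 2 of the P30 cells. Cct4 read -0.28, -0.67, -0.12, -3.31 and -0.49 in the P30 cells, against 0.17, 0.26, 0.51, 0.52 and -0.70 in the P6 cells, and -1.13 became -0.54 without replicate 4 of the P30 cells. Of its 7 probe sets, 3 lay at -6.64 to -6.36 in replicate 4 of the P30 cells, and the other 4 at -2.99 to 0.83.

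Cct5 read 0.38, -1.08, -0.69, -0.36 and -0.58 in the P30 cells, against -0.01, 0.14, 0.09, 0 and -0.35 in the P6 cells (difference -0.44), with 4 of 5 P30 cells under every P6 cell. Cct8 differed by -0.26 with overlap of the ages. Cct3 was the exception at 0.09, but this rested on replicate 3 of the P30 cells, without which it stood at -0.38. In that cell 1 probe set of Cct3 read 6.95, and the differences of the other 6 were of mixed sign, from -0.94 to 0.66. Cct6b, a testis form of the Cct6a subunit, differed by -0.75, and by -0.12 without replicate 2 of the P30 cells. The Cct8-like gene Cct8l1 differed by -0.23.

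**Figure D4:**
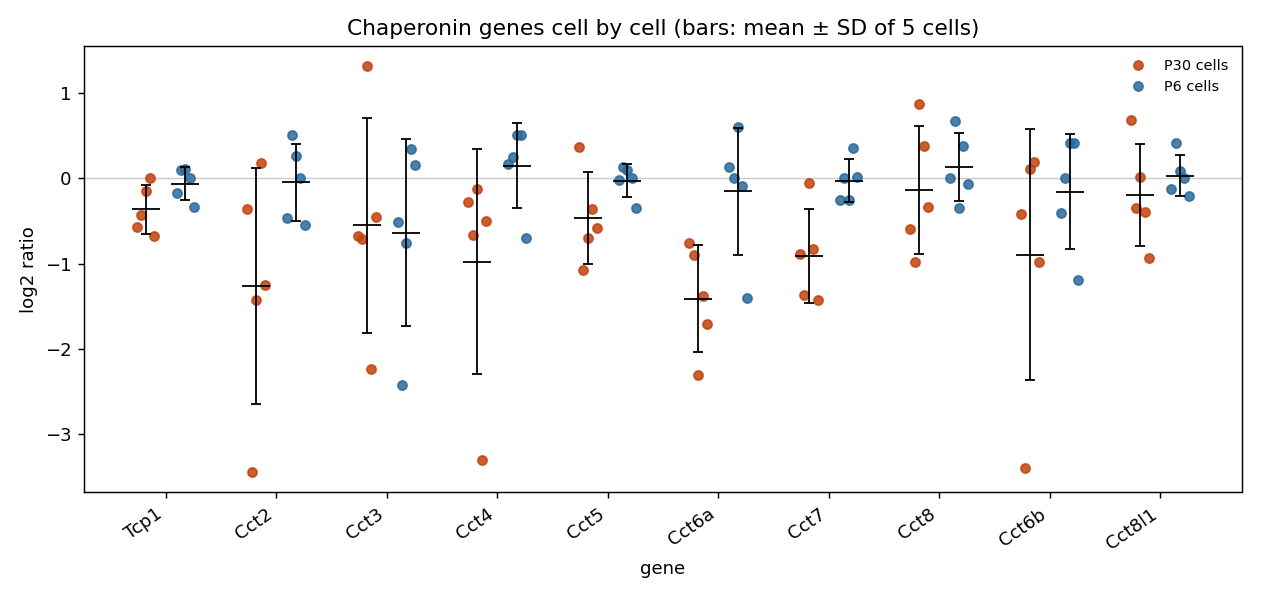
Log2 ratio of the 10 CCT genes in each P30 cell (left points) and each P6 cell (right points), with mean and SD of 5 cells as bars. P30 means lie below P6 means in every gene except Cct3, the points of both ages overlap in every gene, and the lowest points are P30 replicate 2 for Cct2 and Cct6b and P30 replicate 4 for Cct4.

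Cell by cell, the median over the 10 CCT genes was -0.50, -0.95, -0.09, -0.37 and -0.80 in the P30 cells, against -0.15, 0.12, 0.10, 0.17 and -0.34 in the P6 cells. The ages overlapped, through replicate 3 of the P30 cells and replicates 1 and 5 of the P6 cells. The arrays as a whole also differed, and medians over all genes were -0.18, -0.19, -0.18, -0.28 and -0.49 in the P30 cells, against -0.12, 0, -0.03, -0.01 and -0.20 in the P6 cells. After subtraction of these, the CCT medians per cell were -0.32, -0.75, 0.09, -0.09 and -0.31 in the P30 cells, against -0.03, 0.12, 0.13, 0.19 and -0.14 in the P6 cells, again with overlap. Relative to all genes the CCT median difference was -0.54, and it was -0.21 when replicate 2 of the P30 cells was left out.

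The Dnajc family, J-domain proteins of varied structure that bring Hsp70 to particular sites, held the most calls. Over 3-fold, 5 of 25 genes (20%) were higher at P6, against 9.39% of all genes, and 2 (8%) were higher at P30, against 4.93%. Its median per cell was -0.70, -1.11, -0.60, -1.27 and -0.96 in the P30 cells, against -0.26, 0.26, -0.29, -0.04 and -0.20 in the P6 cells. Every P30 cell was lower than every P6 cell. This held after the median of all genes in the same cell was subtracted, with -0.98 to -0.42 in the P30 cells and -0.26 to 0.26 in the P6 cells. Without that subtraction, medians per cell also separated for the co-chaperones and regulators described below. They ran from -0.59 to -0.26 in the P30 cells and from -0.23 to 0.01 in the P6 cells.

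Dnajc7 (Tpr2), which binds Hsp70 and Hsp90 through its TPR repeats, was the member with all P30 cells below all P6 cells. It stood at -2.13, -3.59, -1.84, -4.17 and -1.27 in the P30 cells, against 0.61, 0.73, -0.80, 0 and -0.26 in the P6 cells. The mean was -2.60 ± 1.23 at P30 and 0.06 ± 0.63 at P6 (SD, n = 5 cells each), a difference of -2.66, which is 6.31-fold higher at P6. Dnajc7 lies at chr11:100582818-100620292 and was read by 1 probe set. Both the call and the separation are shared by 1.75% of all genes.

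Dnajc9, a histone H3-H4 chaperone in human cells, had the largest difference toward P6. It stood at 1.53, -4.40, -5.67, -3.46 and -4.71 in the P30 cells, against -0.66, -1.88, 0, 0.38 and 0.85 in the P6 cells. Replicate 1 of the P30 cells was the highest of all 10 and the other 4 were the lowest. The difference was -3.08 (8.45-fold higher at P6), and without that cell it was -4.30.

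Dnajc14, an ER membrane protein, had the largest spread of all members (pooled SD 2.98). It stood at 2.72, -4.79, -4.19, -4.62 and -4.82 in the P30 cells, against -3.03, -4.57, 2.08, -0.43 and 0.17 in the P6 cells, with floor values at both ages. Its difference of -1.98 rested on which cells were included, since leaving out replicate 2 or 5 of the P30 cells or replicate 3 of the P6 cells ended the call and leaving out replicate 1 of the P30 cells made it -3.45.

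The remaining calls toward P6 were Dnajc17, which has an RNA recognition motif, and Dnajc16. Dnajc17 stood at -3.41, 1.00, -3.58, -3.12 and -0.14 in the P30 cells, against -0.02, 0.09, -0.02, 1.62 and -0.89 in the P6 cells. The P6 mean was 4.02-fold higher, and P30 cells held floor values in the probe set that differed most (-3.77, against -1.72 and -0.52). The call ended without that probe set (-1.12), with a floor of 0.1, or without replicate 3 of the P30 cells. Without replicate 2 of the P30 cells the difference was -2.72. Dnajc16 stood at -1.51, -1.25, -2.31, -2.34 and -2.13 in the P30 cells, against 0.40, 0.66, 0.29, -1.08 and -1.57 in the P6 cells, and its difference of -1.65 lay just past 3-fold. Leaving out any of 5 cells (replicates 3 and 4 of the P30 cells and 1, 2 and 3 of the P6 cells) or setting array medians equal ended that call.

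Dnajc12 and Dnajc27 went the other way. Dnajc12, a partner of aromatic amino acid hydroxylases in human, read 3.46, -1.82, -1.48, 2.84 and 7.0 in the P30 cells, against -0.97, -0.26, 0.22, -1.91 and -2.90 in the P6 cells. P30 cells were divided, 3 above every P6 cell and 2 within the range of the P6 cells, and the difference of 3.17 (8.97-fold) became 1.92 (3.77-fold) without replicate 5. Dnajc27, a Rab-like GTPase with a J domain, read 2.62, 0.04, 1.09, 0.56 and 3.12 in the P30 cells, against 0.36, 0, -0.89, -0.92 and -1.34 in the P6 cells, a difference of 2.05 (4.13-fold). Both of its probe sets were higher at P30, by 2.60 and 1.49.

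The other 18 Dnajc genes lay between -1.38 (Dnajc24) and 0.58 (Dnajc4). The vesicle and synapse list held Dnajc5 (cysteine string protein), Dnajc6 (auxilin) and Dnajc13 (an endosomal protein), and their differences were -0.89, -0.03 and -1.13. Dnajc15, a J-domain protein of the mitochondrial inner membrane, differed by -1.36 only because replicate 2 of the P30 cells was at the floor, and the other 9 cells lay between -0.33 and 0.68.

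**Figure D5:**
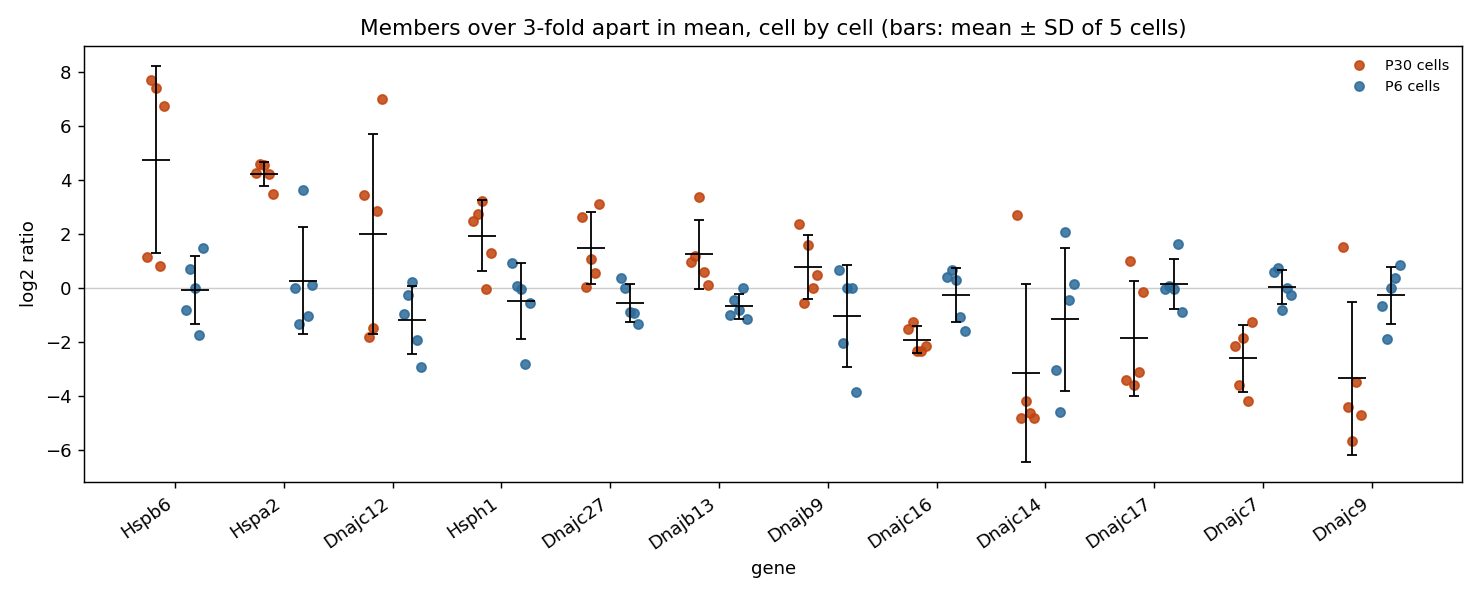
Log2 ratio of the 12 members over 3-fold apart in mean, in each P30 cell (left points) and each P6 cell (right points), with mean and SD of 5 cells as bars. Only Dnajb13 and Dnajc7 show no overlap of the ages, while Hspb6, Dnajc12, Dnajc9 and Dnajc14 show P30 cells split into high and low values.

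Of the Dnaja and Dnajb genes, the co-chaperones nearest to the bacterial DnaJ, Dnajb13 was the member with all P30 cells above all P6 cells. Dnajb13, known from the radial spokes of sperm tails and cilia, had 0.98, 1.18, 3.38, 0.59 and 0.10 in the P30 cells, against -1.0, -0.43, -0.80, 0 and -1.14 in the P6 cells. The difference was 1.92 (3.78-fold) and, without replicate 3 of the P30 cells, 1.39, under 3-fold, although the ages stayed apart. A gene both over 3-fold higher at P30 and apart was found in 0.843% of all genes.

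The stress-inducible Dnajb1 (Hsp40) differed by -0.13 between ages and varied within them, from -2.99 to 1.35 in the P30 cells and from -2.02 to 2.83 in the P6 cells. Without replicate 2 of the P30 cells, the lowest, its difference was 0.69. Dnaja1, the main cytosolic DNAJA, differed by -0.15. Dnaja4 measured -1.0, -3.39, -0.68, -3.68 and -1.04 in the P30 cells, against -1.25, -2.25, 0.18, 0.54 and 0.10 in the P6 cells, with floor values at both ages and a difference of -1.42. Dnaja2 measured -1.24, 0.36, 0.32, 0.69 and -0.02 in the P30 cells, against -0.24, -1.03, -1.57, -0.15 and -0.65 in the P6 cells (difference 0.75). Dnajb3, one of the 3 members with the largest spread, had -2.99, -2.15, -4.29, -4.95 and -0.42 in the P30 cells, against 0.90, 1.75, -6.64, -3.81 and -2.92 in the P6 cells. Its difference of -0.81 was small beside this spread (pooled SD 2.76).

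Set by known induction, the 13 heat-inducible members had a median difference of -0.15, with 5 higher and 8 lower at P30. The lower ones include Hspa8 (-0.22), which was kept in this list although it is described above as constitutive. Hsph1 was the 1 gene of this list over 3-fold (7.7%, against 4.93% of all genes), and 0 of 13 were over 3-fold higher at P6, against 9.39%. Per cell the median over the list ran from -0.27 to 0.17 in the P30 cells and from -0.54 to 0.39 in the P6 cells, with full overlap. Tissue dissociation can itself induce genes, and 13 of 15 immediate early genes were lower in mean at P30, with a median of -0.76. Over 3-fold, 4 of the 15 (26.7%) were higher at P6, against 9.39% of all genes, and 1 (6.67%) was higher at P30, against 4.93%. Egr1 stood at -3.51, -3.04, -3.42, -4.05 and -4.78 in the P30 cells, against 0, 2.29, 2.75, -0.10 and -2.23 in the P6 cells. It was the 1 gene of the 15 with all P30 cells below, against 2.13% of all genes. The part of the dissociation response in the chaperone values was not tested.

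Co-chaperones and regulators outside the rule had 50 of 55 genes measured, with a median of -0.28, 18 higher and 32 lower at P30. More than 3-fold, 3 (6%) were higher at P30, against 4.93% of all genes, and 7 (14%) were higher at P6, against 9.39%. Bag3, a partner of Hsp70 and Hspb8, had 5.81, 2.44, 1.42, -0.78 and 0.66 in the P30 cells, against 3.22, -0.68, -0.19, -3.55 and 0.16 in the P6 cells (difference 2.12), with overlap. Bag1, a nucleotide exchange factor of Hsp70, had -3.80, 0.56, -5.73, -5.57 and -1.49 in the P30 cells, against 0, 0.31, 0.22, -0.02 and -0.58 in the P6 cells (difference -3.19). The prefoldin subunits Pfdn2 and Pfdn6, which hand actin and tubulin to CCT, differed by -3.32 and -2.82 with floor values in 2 and 1 P30 cells. The other 4 prefoldin genes were under the call, with Pfdn4 at -1.38, Vbp1 at -0.84, Pfdn5 at -0.18 and Pfdn1 at -0.14. The Hsp90 activator Ahsa1 differed by -2.05.

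Variation between cells of the same age was as large in the members as elsewhere, with a median pooled SD of 1.03, against 1.04 over all genes. It was 0.65 in the CCT genes and 1.12 in the Dnajc genes. Of 50 members with several probe sets, 25 had probe sets with opposite signs, 7 of 10 among the Hspa and Hsph1 genes. Of the 12 calls, 7 held without any one cell (Hspb6, Hspa2, Dnajc12, Hsph1, Dnajc27, Dnajc7 and Dnajc9). Of the 66 members not called, 13 passed 3-fold when some single cell was left out.

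As to the cells, ratios cannot show whether a marker was present, but they show which cells stood apart. Of 12 astroglial markers, 10 were higher in mean at P30, with Gja1 over 3-fold. All 9 measured oligodendrocyte markers were higher at P30, with a median of 1.09. Replicate 5 of the P30 cells also had the lowest array median (log2 ratio -0.46, against -0.13 to -0.10 in the other P30 cells and -0.14 to 0 in the P6 cells). Its median over the 4 measured Purkinje cell markers was the highest of all cells (2.55). Calb1, Pcp2 and Pvalb stood at 2.11, 2.98 and 7.23 in that cell, but Car8 at -1.29. Replicate 5 of the P6 cells had the highest median over the 10 neuronal markers (2.09), but the markers did not move together. Snap25, Tubb3, Stmn2, Gap43 and Syn1 stood at 3.21 to 3.84 in it and Nefm at 0.98. Syt1, Map2, Rbfox3 and Nefl stood at -0.38, -0.22, -0.76 and -1.40. The part of these signals in the chaperone values was not tested.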

How the data were processed

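Each of the 10 arrays held oligo-dT primed, PCR-amplified cDNA of 1 cell. The authors processed the scans with RMA in GeneSpring GX 7.3 and deposited linear ratios: per the methods, values under 0.01 were set to 0.01 and values were divided by the 50th percentile of the array and by a median of the probe set. In the deposited ratios 0.01 is the lowest value above 0, and it is called the floor here. Of 45101 probe sets, 43608 had values in all cells, 34958 map to 1 gene in the platform annotation, and 10 zeros were set to 0.01. At the floor were 1.73% of P30 values and 1.07% of P6 values. Members had 189 complete probe sets, and 5 others were left out (2 without values, 3 with a value in 1 P30 cell only).

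Log2 ratios were averaged over probe sets and then over cells, in Python 3.11.15 with NumPy 2.4.6 and pandas 2.3.3, and the steps were tested on simulated data. Folds are ratios of geometric means, and with floor values at 1 age they are bounds. No test across ages was run, and the number of arrays limits the precision.

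Members and lists were chosen with earlier results of these data known. Values in every cell were planned for the Hspa, Hsp90, Hspd1, Hspe1 and CCT genes discussed by role, the 2 largest differences of each family, members over 3-fold and apart, and the 3 largest and 3 smallest spreads. Other genes named were chosen after their values were seen. Alternatives were array medians or hybridization spikes (16 probe sets) as scale, a floor of 0.1, medians of cells or of probe sets, fewer probe sets, a 2-fold rule and each cell left out. Signal over background was not analysed here.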

Additional observations from a re-analysis of the deposited data

Results flagged for a closer look

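For all 78 members and the 8 family medians, 172 groups of 5 cells were screened for a cell far from the other 4, and 7 were marked, where chance marks about 1 in 20 groups. Cct4 stood at -3.31 in replicate 4 of the P30 cells, against -0.67 to -0.12 in the other P30 cells. Cct4 also stood at -0.70 in replicate 5 of the P6 cells, against 0.17 to 0.52 in the other P6 cells. Dnajc14 was at 2.72 in replicate 1 of the P30 cells, where the other P30 cells lay between -4.82 and -4.19. Hspa12b was at 2.71 in replicate 5 of the P30 cells, with -0.14 to 0.04 in the others, and at -2.11 in replicate 3 of the P6 cells, with -0.17 to 0.19 in the others. Dnajb1 was at -2.99 in replicate 2 of the P30 cells, with 0.85 to 1.35 in the others. Dnajc15 was at -6.64, the floor, in replicate 2 of the P30 cells, with -0.33 to 0.68 in the others.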

How the results depend on the processing

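Of 223 alternatives to the medians and counts, 192 stayed within the spread between cells or within 1.5 times the count. No single member difference that had been called changed sign, and of 1324 alternatives to single member differences 1319 stayed within the spread. Many of these alternatives left out 1 cell, which by arithmetic cannot move a difference beyond the spread, so that count does not show stability. Of the 12 calls, 7 held without any one cell. Scaled to the spikes, the median difference was -0.43 over all members, 0.18 for Hspa and Hsph1 and -0.97 for Dnajc, and 10 members were called toward P6 (all genes 12.9%), while P30 cells lay entirely above in 2 and entirely below in 7 (all genes 0.926% and 3.77%). With medians of cells, Hspa and Hsph1 were at -0.050, Dnajb at 0.63 and Dnajc at -0.44, with 9 members over 3-fold higher at P6 (all genes 11.3%). A floor of 0.1 left 2 members over 3-fold higher at P6 (all genes 6.55%), and a 2-fold rule gave 17, with 10 higher at P30 (all genes 18.2% and 11.7%). All P30 cells were above in 3 members with array medians as scale (all genes 2.66%) and in 2 without probe sets at the floor (1.47%), and below in 2 with medians of probe sets (2.24%). The share of calls higher at P30 was 58.3%, 66.7% with array medians and 37.5% with spikes. The Dnajb9, Dnajc14, Dnajc16 and Dnajc17 calls also ended in 1 or more of these settings. The cause was not tested.

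With single cells left out, medians ran from -0.28 to -0.10 over all members, from 0.15 (without P30 replicate 5) to 0.56 for Hspa and Hsph1, from 0.29 to 0.87 for Hsp90, from 0.32 to 0.82 for Hspb and from -0.47 to -0.07 for Hspd1 and Hspe1. They ran from -0.16 to 0.31 for Dnaja, from 0.02 to 0.50 for Dnajb, from -0.92 to -0.44 (without P6 replicate 4) for Dnajc and from -0.76 to -0.29 (without P30 replicate 2) for CCT. Members over 3-fold numbered 6 to 9 higher at P30 and 5 to 9 higher at P6 (9 without P30 replicate 1), and 1 to 3 had all P30 cells above (3 without P6 replicate 1) and 1 to 4 all below (4 without P30 replicate 1 or P6 replicate 5).

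No paired analysis was possible because no test across ages was run and cells with the same number come from mice of different ages, with no animal named. Ratios without signal over background do not show which members were near detection.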
